A study of Mus musculus with 6 samples.

Results

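The enzymes of glycolysis, the pentose phosphate pathway, the pyruvate dehydrogenase step and the citrate cycle, with the NADP-linked and malic enzymes beside them, were followed in HT22 cells, an immortalised mouse hippocampal line, after exposure to AA147. The set was a list of 49 gene symbols, and all 49 were among the 16472 genes of the authors' deposited table. AA147 is a compound described as activating ATF6, a sensor of protein misfolding in the endoplasmic reticulum, and NRF2, a regulator of antioxidant genes. Cultures in 12-well plates were given AA147 at 10 mM, the dose and unit as the labels state them, or the solvent DMSO as vehicle, for 16 h. There were 3 libraries with AA147 and 3 with vehicle, and the labels do not say whether the 3 came from separate cultures or passages. Nothing besides AA147 is stated to differ between the groups.

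Each gene has 1 row in the authors' deposited table, made from all libraries together. The spread between replicates is therefore known only through the standard error (SE) of each log2 fold change, and which libraries were high or low was not analysed here. Which group stands in the numerator is not named in the header. Fold changes are read as AA147 over vehicle, so that every "higher" or "lower" below is conditional on that reading, and all would turn together if it were wrong. A gene is called where its adjusted p is under 0.05 in the authors' deposited table, from DESeq2 with Benjamini-Hochberg adjustment over 13597 genes.

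The labels describe the cells as neurons, and most neuronal markers were absent from the authors' deposited table. Of 10 neuronal markers, 2 had a row, Tubb3 with a mean of 1199 normalized counts and Stmn2 with 6.24, while Map2, Rbfox3, Syp and Snap25 had none. Of 8 mesenchymal markers, 7 had a row in the authors' deposited table, with means from 181 to 254004. Of these 7, 5 were called lower with AA147, beside 11.1% of all genes tested and 15.6% of those with a mean of at least 1000. Astrocyte, oligodendrocyte and microglial markers had 5 rows for 12 genes in the authors' deposited table, the highest being Slc1a3 at 927. Outside the mesenchymal list, Tubb3 was called higher at 0.43 (adjusted p 5.67e-05), the microglial marker Csf1r higher at 0.95 (adjusted p 0.0278) and the astrocyte marker Slc1a3 lower at -1.30 (adjusted p 2.39e-45), by the authors' deposited table. The part of these cell-identity genes in the results below was not tested.

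Glycolysis splits glucose into pyruvate, which lactate dehydrogenase can turn into lactate or the pyruvate dehydrogenase complex can pass to the citrate cycle in mitochondria. The pentose phosphate pathway branches off at glucose 6-phosphate. Its oxidative arm yields NADPH, the reducing agent that keeps glutathione and thioredoxin reduced, and its non-oxidative arm shuttles carbon units between sugar phosphates and returns them to glycolysis. Cytosolic and mitochondrial NADP-dependent isocitrate dehydrogenases and malic enzyme 1 are further sources of NADPH.

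Of the 49 enzymes, 7 were called higher and 12 lower with AA147, and 30 were not called. In the authors' deposited table as a whole, 20.2% of genes were called, 9.05% higher and 11.1% lower, against 38.8% of the enzymes, 14.3% higher and 24.5% lower. The enzymes are abundant, and abundant genes were called more often. Of the 40 enzymes with a mean of at least 1000 normalized counts, 17 were called, 6 higher and 11 lower, which is 42.5%, beside 28.4% of all genes that abundant in the authors' deposited table, 12.8% higher and 15.6% lower. The median log2 fold change over the 49 enzymes was 0.00, beside 0.01 over all genes tested. Values ran from -0.85 for Idh1 to 0.88 for Taldo1 in the authors' deposited table, and 14 of the 19 called enzymes had an absolute log2 fold change under 0.5.

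**Figure D1:**
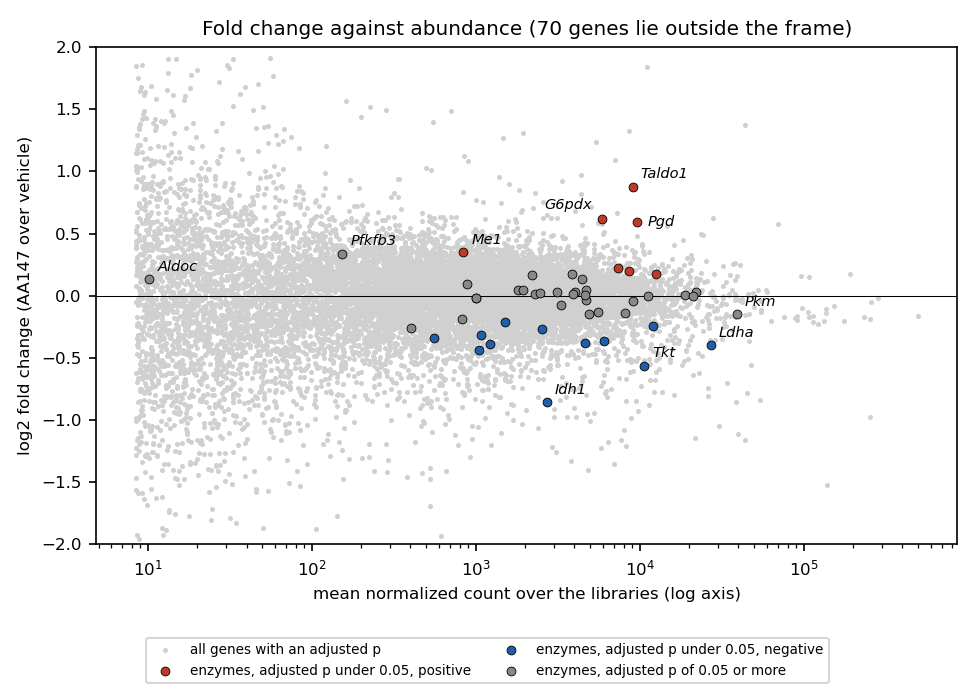
Log2 fold change (AA147 over vehicle) of every gene with an adjusted p against its mean normalized count on a log axis, from the authors' deposited table, with the enzymes as larger points coloured by call. Most enzymes lie close to 0 at the abundant end, while Taldo1, G6pdx and Pgd lie above 0.5 and Idh1 and Tkt below -0.5.

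The pentose phosphate enzymes held the largest positive values and moved in opposite directions within each arm. Of 8 enzymes, 3 were called higher and 3 lower, beside 9.05% and 11.1% of all genes, and 2 were not called. Taldo1, the transaldolase of the non-oxidative arm, was the enzyme with the smallest p among the 49. Its log2 fold change was 0.88 (adjusted p 7.66e-50, SE 0.057) in the authors' deposited table, a 1.84-fold difference, and it stood at rank 15 by p among all positive genes. Its mean of 9050 normalized counts corresponds to an average of about 6384 with vehicle and 11715 with AA147 taking the fold change at face value. Tkt, the transketolase that works beside transaldolase on the same sugar phosphates, had a log2 fold change of -0.56 (adjusted p 4.69e-22, SE 0.056) in the authors' deposited table. Its averages at face value were 12717 with vehicle and 8612 with AA147. The 95% intervals of the pair, 0.76 to 0.99 for Taldo1 and -0.67 to -0.45 for Tkt, lie on opposite sides of 0. Per kb of canonical transcript, Taldo1 had a level of 7154 normalized counts and Tkt 3302 over all libraries. Rpia, the ribose 5-phosphate isomerase, lay at -0.19 (adjusted p 0.124) and Rpe, the ribulose-phosphate epimerase, at -0.02 (adjusted p 0.920, SE 0.086) in the authors' deposited table.

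The oxidative arm was divided in the same way. G6pdx, glucose-6-phosphate dehydrogenase, which makes the committed step and the first NADPH, had a log2 fold change of 0.61 (adjusted p 1.15e-19, SE 0.064) in the authors' deposited table. Pgd, 6-phosphogluconate dehydrogenase, which makes the second NADPH, lay at 0.59 (adjusted p 2.05e-20, SE 0.061) in the authors' deposited table. These correspond to 1.53-fold and 1.51-fold, and the 95% intervals, 0.49 to 0.74 and 0.48 to 0.71, overlap over most of their length. Pgls, the lactonase whose step lies between those of the dehydrogenases, went the other way at -0.38 (adjusted p 3.43e-06, SE 0.073) in the authors' deposited table. H6pd, the enzyme of the endoplasmic reticulum that joins the dehydrogenase and lactonase activities in 1 protein, lay at -0.21 (adjusted p 0.0323, SE 0.078) in the authors' deposited table.

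G6pd2, an intronless relative of G6pdx that is no member of the list and was picked with its value known, had a row of its own. Its log2 fold change was 0.83 (adjusted p 2.3e-08, SE 0.134) with a mean of 315 in the authors' deposited table, where G6pdx had 5931. A stretch of 39.3% of the G6pdx transcript aligned to the G6pd2 locus of mouse assembly GRCm39 with 93.6% identity, so reads from the more abundant gene could be counted there, which was not tested. Summed over both rows, the log2 ratio was 0.62.

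Upstream sequence is shown for the transaldolase and transketolase genes, which moved apart, for G6pdx, the enzyme with the largest positive value of the oxidative arm, and for Ldha, the called enzyme with the highest level per kb. Each run is the 250 bases before the RefSeq transcription start in mouse assembly GRCm38.p6, 5′ to 3′ on the gene's strand, and capitals mark matches to any of the motifs given after them. The stretches are chr7:141391910-141392159 (plus strand) for Taldo1, chr14:30548881-30549130 (plus strand) for Tkt, chrX:74428881-74429130 (minus strand) for G6pdx, and chr7:46845554-46845803 (plus strand, the first of 2 starts) for Ldha.
Taldo1: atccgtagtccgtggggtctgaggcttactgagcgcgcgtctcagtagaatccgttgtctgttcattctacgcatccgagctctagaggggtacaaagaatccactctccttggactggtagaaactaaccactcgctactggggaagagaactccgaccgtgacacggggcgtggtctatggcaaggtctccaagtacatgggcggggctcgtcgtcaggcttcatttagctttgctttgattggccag
Tkt: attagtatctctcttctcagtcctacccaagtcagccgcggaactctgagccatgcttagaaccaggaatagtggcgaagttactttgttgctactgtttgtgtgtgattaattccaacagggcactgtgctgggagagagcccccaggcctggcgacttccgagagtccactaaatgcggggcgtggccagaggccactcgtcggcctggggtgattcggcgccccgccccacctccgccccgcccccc
G6pdx: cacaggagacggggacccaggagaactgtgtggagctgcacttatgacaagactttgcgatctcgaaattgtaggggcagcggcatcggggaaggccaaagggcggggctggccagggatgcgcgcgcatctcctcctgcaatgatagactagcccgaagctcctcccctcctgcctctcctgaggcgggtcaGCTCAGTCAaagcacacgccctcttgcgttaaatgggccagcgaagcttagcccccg
Ldha: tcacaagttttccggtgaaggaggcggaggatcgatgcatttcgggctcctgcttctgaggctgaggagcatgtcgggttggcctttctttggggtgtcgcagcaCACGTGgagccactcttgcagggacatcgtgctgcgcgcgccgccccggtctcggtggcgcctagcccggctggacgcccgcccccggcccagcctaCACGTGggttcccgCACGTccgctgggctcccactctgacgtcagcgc
The antioxidant response element core, TGACNNNGC on either strand, is the site known for NRF2. It was found 1 time in the G6pdx stretch, on the strand opposite to the gene, from 57 to 49 bases before the start, and not in those of Taldo1, Tkt or Ldha. Of the 47 enzymes with an entry, 6 held it before at least 1 start, 12.8% of them, beside 11.5% of all 27025 genes with an entry. Of these 6, G6pdx and Hk1 were called higher, and Aldoa, Dlst, Idh3g and Sucla2 were not called. Over all genes, 9.05% were called higher and 11.1% lower, and over those with a mean of at least 1000, 12.8% and 15.6%. The hypoxia response element core, ACGTG on either strand, occurred at 3 places in the Ldha stretch, 2 of which read the same on both strands. It was found for 16 of 47 enzymes, 34.0%, beside 18.5% of all 27025 genes with an entry. Of the 16, 2 were called higher, 2 lower and 12 not, beside the shares over all genes just given. A gene counted if the motif lay before any of its starts. The 47 enzymes had 70 starts, beside 32851 for all 27025 genes. The 27025 genes were not limited to those of the authors' deposited table or to abundant ones. Whether the number of starts, abundance or base composition bears on these shares was not tested. The sterol regulatory element, TCACNCCAC on either strand, was found for Pkm and Aldoc only, 4.26% of the enzymes beside 1.22% of all genes. These matches describe letters within a short window. Idh3a and Me2 had no entry.

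All 6 enzymes counted as NADPH-producing were called, 3 higher and 3 lower, beside 20.2% of all genes and 28.4% of those with a mean of at least 1000. The higher ones were G6pdx and Pgd, described above, and Me1, the cytosolic NADP-dependent malic enzyme, at 0.35 (adjusted p 0.00116, SE 0.090) in the authors' deposited table. The lowest value of the whole set belonged to Idh1, the cytosolic and peroxisomal NADP-dependent isocitrate dehydrogenase, at -0.85 (adjusted p 1.6e-33, SE 0.068) in the authors' deposited table, or 0.553-fold. At face value its averages were 3494 normalized counts with vehicle and 1933 with AA147. Idh2, the mitochondrial counterpart, lay at -0.24 (adjusted p 0.000110, SE 0.054) in the authors' deposited table, and H6pd completes the lower group. The 95% intervals of Idh1, -0.99 to -0.72, and Idh2, -0.35 to -0.14, did not overlap, but the difference between genes was not tested, since the covariance of their values is not in the authors' deposited table. Within the NADPH sources of the cytosol, the pentose phosphate dehydrogenases and Me1 were thus higher and Idh1 lower in the same comparison.

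Of 7 other genes linked to NADP and NADPH that are outside the list and had an adjusted p in the authors' deposited table, 3 were called, each lower, beside 11.1% of all genes called lower, and 4 were not called. Me3, the mitochondrial NADP-dependent malic enzyme, lay at -1.35 (adjusted p 1.15e-06, SE 0.247) with a mean of 93.7 in the authors' deposited table. Mthfd2, a mitochondrial enzyme of the folate cycle, lay at -0.36 (adjusted p 6.35e-06, SE 0.070) in the authors' deposited table, and Nadk2, the mitochondrial NAD kinase, at -0.20 (adjusted p 0.0427). The cytosolic enzymes Mthfd1 and Nadk lay at -0.06 and -0.10 with adjusted p of 0.502 and 0.268 in the authors' deposited table. Also not called were Aldh1l2, a mitochondrial enzyme, at -0.13 (adjusted p 0.270), and Aldh1l1 at -0.48 (adjusted p 0.484) with a mean of 27.4. Me2, a malic enzyme of mitochondria that works mainly with NAD, was not called at 0.18 (adjusted p 0.0894), nor was Pcx, the pyruvate carboxylase that refills the citrate cycle, at 0.17 (adjusted p 0.0794), both in the authors' deposited table. Pcx was called, at 0.19 with an adjusted p of 0.0414, when a trend on transcript length, GC content and expression was subtracted, and not, at 0.16 with an adjusted p of 0.114, when fold changes were centred.

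**Figure D2:**
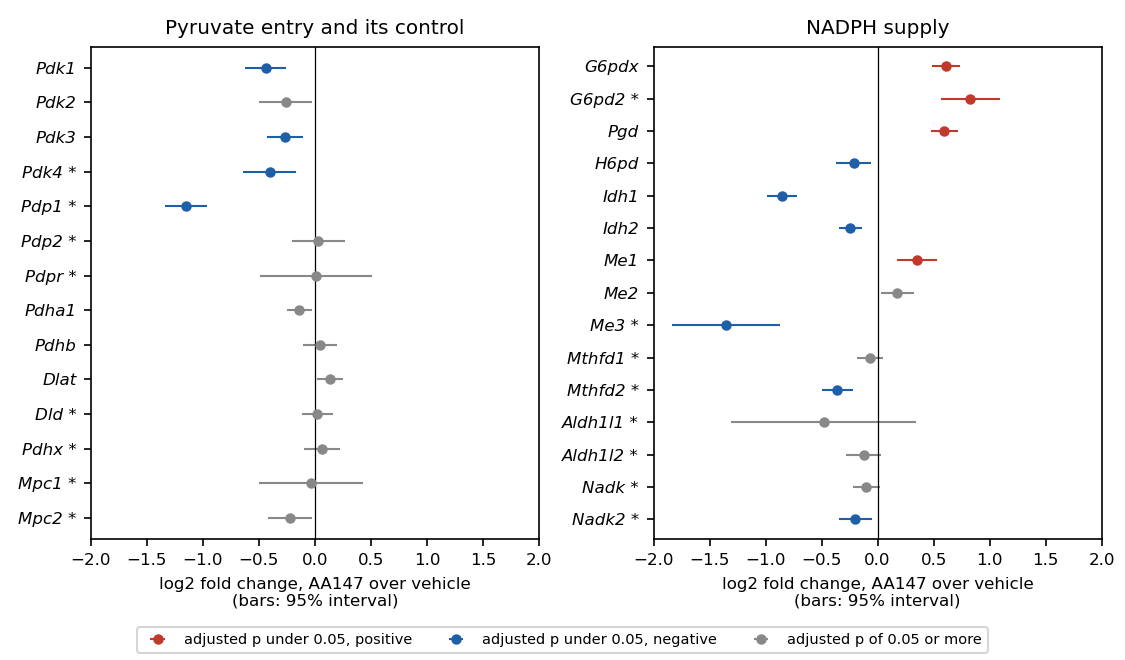
Log2 fold changes (AA147 over vehicle) with 95% intervals from the authors' deposited table, for pyruvate entry and its control on the left and NADPH supply on the right, coloured by call, with an asterisk on genes outside the list of 49. Pdk1, Pdk3, Pdk4 and Pdp1 lie below 0, and G6pdx, Pgd and Me1 lie above 0 while Idh1, Idh2 and Me3 lie below.

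The hexose steps of glycolysis had 2 enzymes called higher, 2 lower and 6 not called, with a median log2 fold change of 0.06. The 4 called are 40.0% of the group, beside 20.2% of all genes. Hk1, the hexokinase that traps glucose in the cell, lay at 0.22 (adjusted p 0.000762, SE 0.056) and Gpi1, which turns glucose 6-phosphate into fructose 6-phosphate, at 0.20 (adjusted p 0.00488, SE 0.057) in the authors' deposited table. Both called negative values belonged to phosphofructokinase, the regulated step of glycolysis. Pfkl, the liver-type subunit, lay at -0.36 (adjusted p 1.39e-07, SE 0.062) and Pfkp, the platelet-type subunit, at -0.39 (adjusted p 5.34e-05, SE 0.083) in the authors' deposited table. Pfkm, the muscle-type subunit, lay at 0.03 with a 95% interval from -0.09 to 0.15 (adjusted p 0.790, SE 0.060) in the authors' deposited table. The interval of Pfkm did not reach those of Pfkl, -0.49 to -0.24, or Pfkp, -0.55 to -0.23, although the difference between the subunits was not tested. 

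Per kb of canonical transcript, Pfkl had a level of 1483 normalized counts, Pfkm 1004 and Pfkp 283. Summed per kb, the 3 subunits gave a log2 ratio of -0.22, and the share of Pfkm in that sum was 33.3% with vehicle and 39.7% with AA147 at face value. Hk1 held 93.6% of the summed level of Hk1 and Hk2 per kb with vehicle, and Hk2, the inducible isoform, lay at 0.09 with an interval from -0.13 to 0.32 in the authors' deposited table. Aldoa, the aldolase that splits fructose 1,6-bisphosphate, lay at 0.03 (adjusted p 0.819) and Tpi1, which interconverts the trioses, at 0.00 with an interval from -0.11 to 0.11, in the authors' deposited table. Aldoc, the aldolase best known from brain, had a mean of 10.2 in the authors' deposited table, and its interval ran from -1.30 to 1.57, too wide to show a smaller difference. Pfkfb3, which makes the activator of phosphofructokinase, had a mean of 153 and a value of 0.34 (adjusted p 0.224, SE 0.193) in the authors' deposited table.

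**Figure D3:**
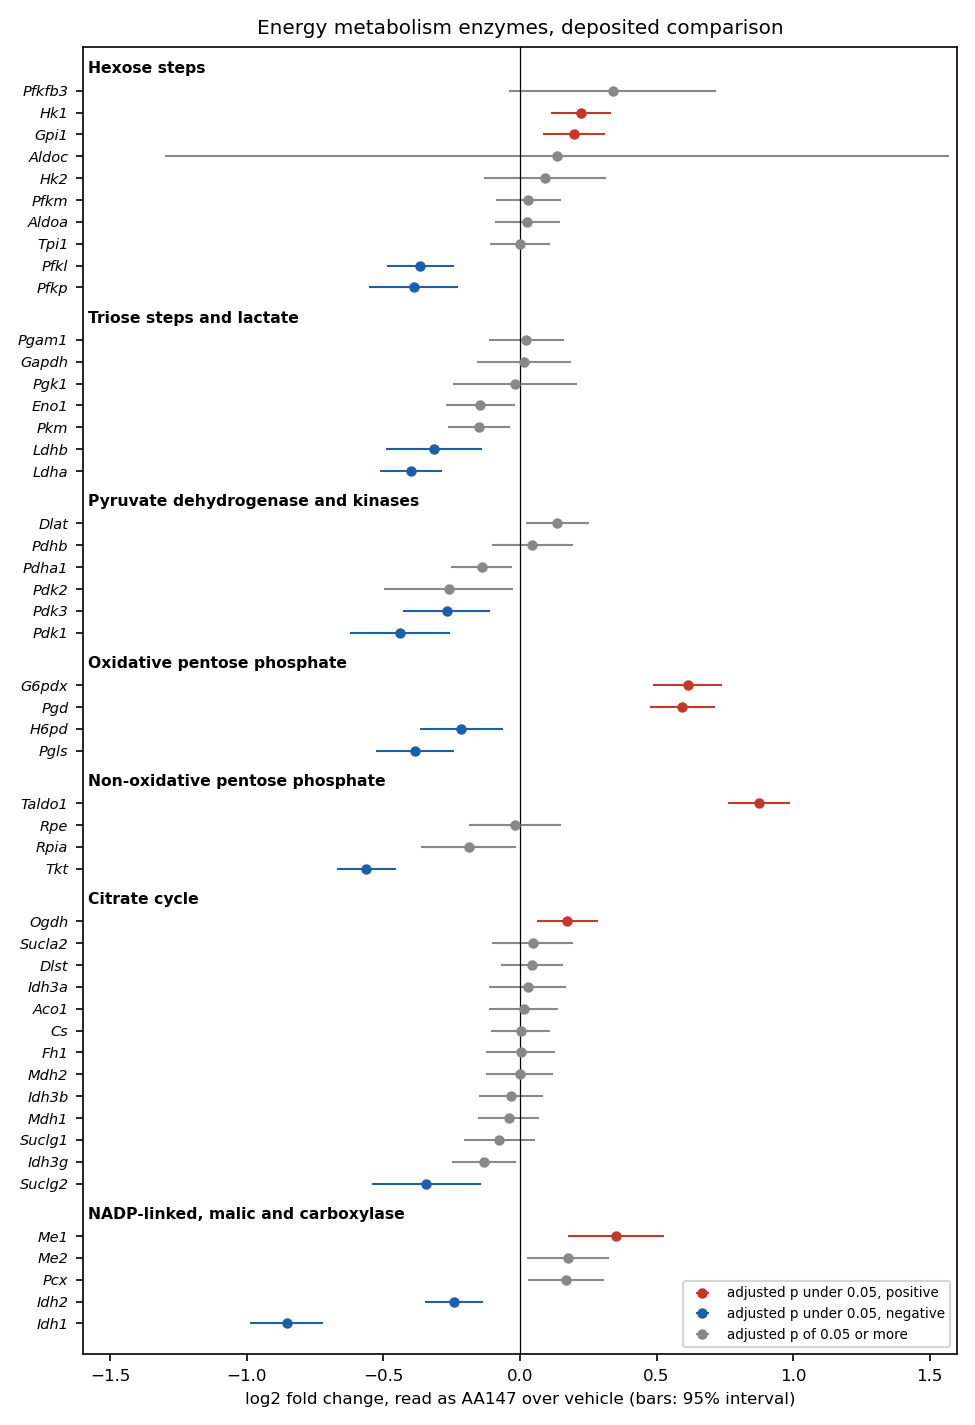
Log2 fold change (AA147 over vehicle) of the 49 enzymes with 95% intervals, in groups by step and coloured by call, from the authors' deposited table. The pentose phosphate groups and the NADP-linked group spread widely to both sides, from -0.85 for Idh1 to 0.88 for Taldo1, and 11 of 13 citrate cycle enzymes were not called.

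Among the triose steps and lactate dehydrogenase, 2 of 7 were called, both lower, which is 28.6% and close to the 28.4% of all genes with a mean of at least 1000. The group's median log2 fold change was -0.15 as deposited and -0.04 once the length, GC and expression trend was removed. Both called genes encode lactate dehydrogenase subunits. Ldha, whose subunits form the enzyme that makes lactate from pyruvate, lay at -0.40 (adjusted p 2.86e-10, SE 0.058) with a mean of 27135 in the authors' deposited table. Ldhb lay at -0.32 (adjusted p 0.00379, SE 0.090) with a mean of 1076 in the authors' deposited table. Per kb, Ldha made up 96.1% of the summed level of the pair with vehicle and 95.9% with AA147, so the subunits kept nearly the same shares. Pkm, the pyruvate kinase and the member with the highest mean, 38995, lay at -0.15 and missed the threshold narrowly (adjusted p 0.0502, SE 0.058) in the authors' deposited table. The value of Pkm depended on the processing: it was called, at -0.16 with an adjusted p of 0.0294, when fold changes were centred on the median of genes with a mean of at least 100, and was -0.04 with an adjusted p of 0.712 when that trend was removed.

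Gapdh, Pgk1 and Pgam1, the 3 steps from glyceraldehyde 3-phosphate to 2-phosphoglycerate, lay at 0.01, -0.02 and 0.02 with adjusted p of 0.940, 0.943 and 0.872 in the authors' deposited table. Their means were 2285, 997 and 2475 in the authors' deposited table. Per kb, the levels were 1609 for Gapdh, 547 for Pgk1 and 1376 for Pgam1, against 14603 for Aldoa and 6993 for Tpi1. The transcripts of Gapdh, Pgk1 and Pgam1 have close copies in the mouse genome, and so do those of Aldoa and Tpi1. In assembly GRCm39, 192 loci outside Gapdh matched at least 50% of its transcript with at least 90% identity, and 84 of them had at least 95% identity. Pgk1 had 2 such loci with up to 99.9% identity, Pgam1 3 with up to 99.9%, and Eno1 7 with up to 99.6%. How the authors' counting treated reads that match several places is not given in the sources used here. The levels and fold changes of all members with such copies are therefore uncertain. The SEs of Gapdh and Pgk1 were 1.19 and 1.28 times the median of the 200 genes nearest in mean, and that of Hk2, which had no such copy, was 1.21 times. For Pgam1 and Eno1 the ratios were 0.96 and 0.98. The median ratio was 0.98 over the enzymes with such a copy and 0.96 over those without.

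Eno1, the enolase that makes phosphoenolpyruvate, had a mean of 4943 in the authors' deposited table, while Eno1b, an intronless copy on another chromosome that is no member and was picked with its value known, had 28331. The Eno1b row thus held 5.73 times as many normalized counts as the Eno1 row. The Eno1b locus matched 75.7% of the Eno1 transcript with 99.5% identity, so reads from either gene could be counted in the other's row, which was not tested. Their fold changes were alike, at -0.15 for Eno1 (adjusted p 0.0940, SE 0.064) and -0.13 for Eno1b (adjusted p 0.113, SE 0.058) in the authors' deposited table, and neither was called. The log2 ratio of the sums of both rows was -0.13. Of the 49 enzymes, 14 had at least 1 copy by these limits, and the called ones among them were Ldha with 15, and Gpi1, Ldhb, Taldo1, Suclg2 and Me1 with 1 each. Over all 49 enzymes 38.8% were called, and over all genes 20.2%.

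**Figure D4:**
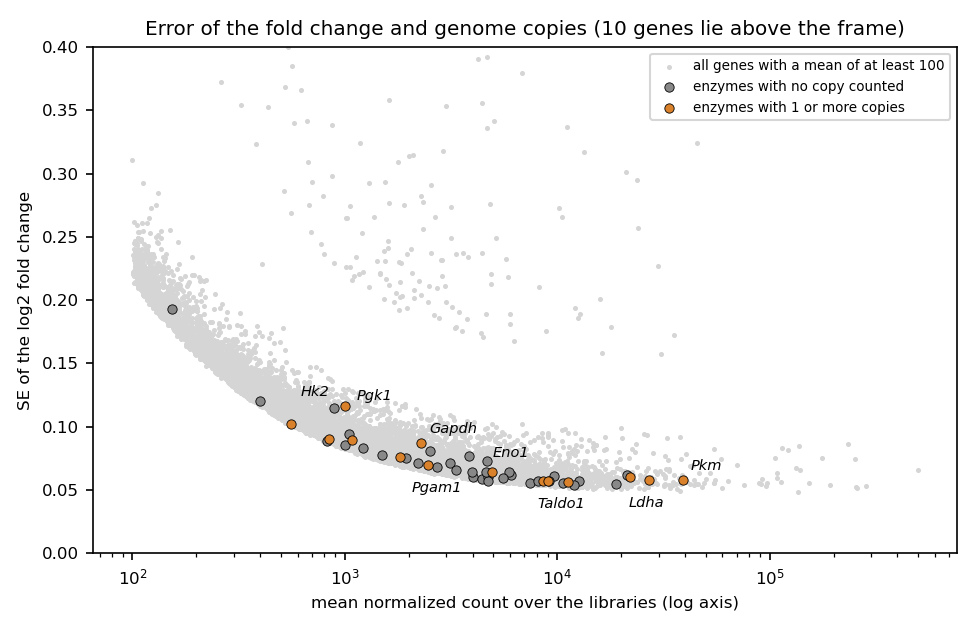
SE of the log2 fold change against the mean normalized count on a log axis for genes of the authors' deposited table whose mean was at least 100, with 10 genes above the frame, and with the enzymes marked by whether a close copy was counted in the genome. Gapdh and Pgk1, which have copies, and Hk2, which has none, lie toward the upper edge of the genes of similar mean, at 1.19, 1.28 and 1.21 times the median SE. The median of this ratio was 0.98 over the enzymes with a copy and 0.96 over those without.

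At the pyruvate dehydrogenase step, 2 of 6 enzymes were called, both lower. The share, 33.3%, stands beside 20.2% of all genes and 28.4% of those with a mean of at least 1000. Both called genes encode kinases that switch off the pyruvate dehydrogenase complex, while the catalytic subunits were not called. Pdk1 lay at -0.44 (adjusted p 5.38e-05, SE 0.094) and Pdk3, the most abundant of the 3 kinases per kb, at -0.27 (adjusted p 0.00763, SE 0.081) in the authors' deposited table. Pdk2 lay at -0.26 (adjusted p 0.114, SE 0.121) and was not called, with a mean of 400 in the authors' deposited table. Pdk4, a kinase outside the list, was called at -0.41 (adjusted p 0.00575, SE 0.119) in the authors' deposited table. Summed per kb over Pdk1, Pdk2 and Pdk3, the log2 ratio was -0.29. Pdp1, the phosphatase that reverses the kinases, was lower by more than any of them, at -1.15 (adjusted p 5.01e-32, SE 0.094) in the authors' deposited table, whereas the other phosphatase Pdp2 lay at 0.03 (adjusted p 0.905). Genes of opposing activities on the complex, kinases and a phosphatase, were thus lower in the same comparison.

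The subunits of the complex itself differed little. Pdha1 and Pdhb encode the E1 enzyme and lay at -0.14 (adjusted p 0.0667) and 0.05 in the authors' deposited table (adjusted p 0.753), and Dlat, the E2 core, lay at 0.14 (adjusted p 0.0858). Pdha1 was called at -0.15 with fold changes centred on the median, with an adjusted p of 0.0405, and at -0.15 with the trend subtracted, with an adjusted p of 0.0440. Dld, the E3 subunit shared with the 2-oxoglutarate dehydrogenase complex, and Pdhx, which binds it, are outside the list and had values of 0.02 and 0.07 in the authors' deposited table (adjusted p 0.894 and 0.657).

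Of the 13 citrate cycle enzymes, 1 was called higher, 1 lower and 11 were not, with a median log2 fold change of 0.00. The called enzymes are 15.4% of the group, beside 20.2% of all genes, and among the 12 with a mean of at least 1000 only 1 was called, beside 28.4% of genes that abundant, in the authors' deposited table. Ogdh, the E1 enzyme of the 2-oxoglutarate dehydrogenase complex, lay at 0.17 (adjusted p 0.0161, SE 0.057) in the authors' deposited table. Its E2 partner Dlst lay at 0.04 in the authors' deposited table (adjusted p 0.665). Suclg2, the subunit that gives succinyl-CoA ligase its preference for GTP, lay at -0.34 (adjusted p 0.00631, SE 0.102), while Sucla2, the subunit for ATP, lay at 0.05 in the authors' deposited table (adjusted p 0.740). Per kb, the share of Suclg2 in the summed level of these subunits was 22.2% with vehicle and 17.9% with AA147. The common alpha subunit Suclg1 lay at -0.08 (adjusted p 0.480, SE 0.066) in the authors' deposited table.

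The intervals of the abundant citrate cycle enzymes were narrow. Cs, the citrate synthase that opens the cycle, had a mean of 18881 and an interval from -0.11 to 0.11, and Mdh2, the malate dehydrogenase that closes it, a mean of 21220 and an interval from -0.12 to 0.12, in the authors' deposited table. Fh1, the fumarase, had an interval from -0.12 to 0.13 in the authors' deposited table. Mdh1, the cytosolic malate dehydrogenase of the malate-aspartate shuttle, had one from -0.15 to 0.07, and Aco1, the cytosolic aconitase that also serves as an iron regulatory protein, one from -0.11 to 0.14. The NAD-dependent isocitrate dehydrogenase has 3 subunits, and Idh3a, Idh3b and Idh3g lay at 0.03, -0.03 and -0.13 with adjusted p of 0.848, 0.780 and 0.104 in the authors' deposited table. These stand beside the called values of the NADP-dependent Idh1 and Idh2 in the same comparison. Over all 30 enzymes that were not called, 23 had a 95% interval that lay inside -0.3 to 0.3, and 9 had an unadjusted p under 0.05, 6 of them with a negative and 3 with a positive value.

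**Figure D5:**
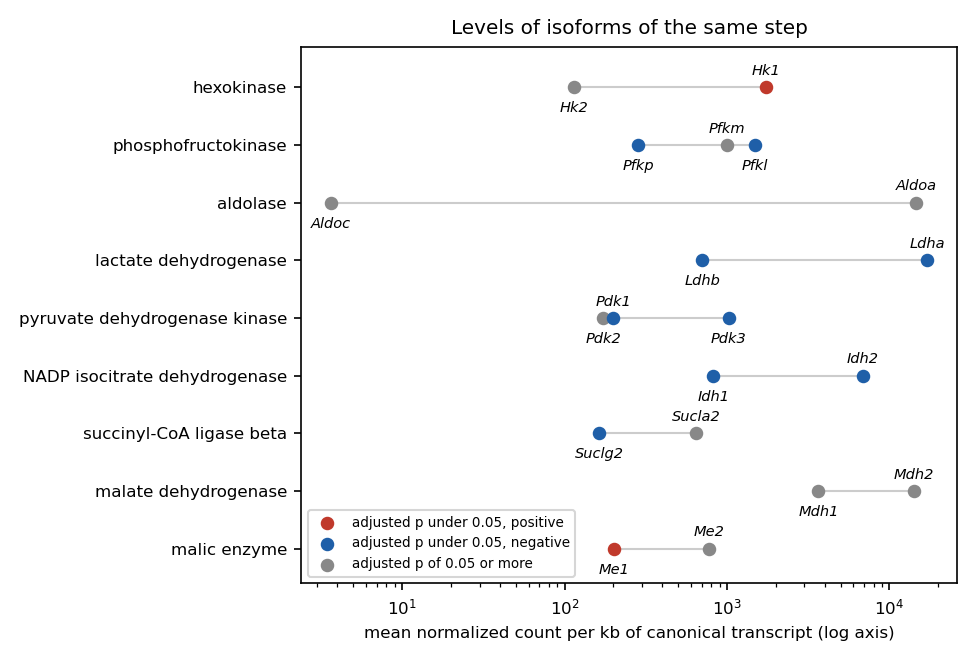
Level of each isoform or alternative subunit of the same step, as mean normalized count per kb of canonical transcript over all libraries on a log axis, coloured by call. Ldha and Ldhb are both lower though far apart in level, while of the phosphofructokinase subunits Pfkl and Pfkp are lower and Pfkm is not called.

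A second list held 58 other genes of these pathways, and 47 of them had an adjusted p in the authors' deposited table. Of these, 2 were called higher and 10 lower, 25.5% in all, beside 20.2% of all genes, and their median log2 fold change was -0.09. The higher genes were Rbks and Bpgm. Rbks, the ribokinase that feeds ribose into the pentose phosphates, lay at 1.21 (adjusted p 2.46e-06, SE 0.227) with a mean of 122, and Bpgm, which makes 2,3-bisphosphoglycerate, at 0.64 (adjusted p 1.16e-06, SE 0.118) with a mean of 518, in the authors' deposited table. Lower genes besides Pdp1, Pdk4, Me3, Mthfd2 and Nadk2 included Pck2, the mitochondrial phosphoenolpyruvate carboxykinase, at -0.59 (adjusted p 3.96e-24, SE 0.056) in the authors' deposited table. The succinate dehydrogenase subunits that anchor the enzyme in the membrane, Sdhc at -0.31 (adjusted p 0.000771) and Sdhd at -0.22 (adjusted p 0.0146), were lower in the authors' deposited table. The catalytic subunits Sdha at -0.13 and Sdhb at -0.04 were not called (adjusted p 0.113 and 0.767) in the authors' deposited table. Acly, which makes cytosolic acetyl-CoA from citrate, lay at -0.18 (adjusted p 0.0190), and the phosphoglucomutase gene Pgm2 at -0.28 (adjusted p 5.47e-05, SE 0.060), in the authors' deposited table. Of the transporters, the glucose transporter Slc2a1 at 0.06 (adjusted p 0.623) and the lactate transporter Slc16a1 at -0.07 (adjusted p 0.610) were not called in the authors' deposited table.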

How the data were processed

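RNA from HT22 cells was sequenced in 6 non-stranded mRNA libraries, per the labels' protocols. Per the submitters' processing notes, the build was mm9 and DESeq2 was used; the aligner, counter, annotation and filters are not given in the sources used here. Per the file headers, the columns deposited by the authors are a mean normalized count (a signal, not per length), a log2 fold change and its SE, a test score, the p-value and its adjusted form. Library depth is unknown. A Benjamini-Hochberg adjustment over 13597 genes gave back the deposited adjusted values, and 2875 genes had none.

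The enzymes and lists were chosen with earlier results of these data known. All 49 enzymes are given, and of other pathway genes those called at a log2 value of 0.3 or more in size, with further genes named for their step. Intervals of 95% are the fold change with its SE on either side, scaled to the normal distribution. Levels per kb used canonical transcripts of GENCODE release M39, and copies were found in GRCm39 with minimap2 2.31. Upstream sequence is RefSeq's for GRCm38.p6, matched by symbol for 47 enzymes. No new test between libraries was possible. Alternatives changed the threshold, fold limit, adjustment, centre or a length, GC and expression trend fitted over 9620 genes by robust regression (statsmodels 0.14.6, Python 3.11.15). The code was tested on simulated data.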

Additional observations from a re-analysis of the deposited data

How the results depend on the processing

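No paired analysis was possible because only 1 row per gene over all libraries was analysed, and for the same reason no replicate was left out. Of the 19 called enzymes, all 19 kept their sign and call with fold changes centred on the median of abundant genes and with the trend subtracted. The counts of 7 higher and 12 lower enzymes became 3 and 2 where a size of 0.5 on the log2 scale was also asked for and 3 and 7 with a Bonferroni adjustment, each stricter by construction, and the 10 lower genes of the second list became 3 and 5. The other alternatives stayed within 1.5 times, with 6 to 8 higher and 11 to 14 lower enzymes. Centring moved each value by -0.01, and the trend moved them by -0.11 to 0.11. Values that changed sign were all near 0 and not called: Cs and Fh1 to -0.011 with centring, and Tpi1 to 0.068, Idh3b to 0.0071, Sucla2 to -0.014, Fh1 to -0.043 and Mdh2 to 0.098 with the trend subtracted. Aldoc, with a mean under 100, had no value under the trend. The median of the hexose steps was 0.03 without it. In an alternative chosen after seeing the data, group medians were recomputed from centred and from trend-subtracted values: that of the triose steps and lactate dehydrogenase became -0.037 with the trend subtracted, and every other one moved by less than the median SE of its group.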
